A study of Mus musculus with 48 samples.

Results

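Female hCYP2B6-Tg mice were given 10 mg/kg/day of PFOS (10-PFOS, 4 mice) or 0 mg/kg/day (0-PFOS, 4 mice), and the messenger RNA of their livers was sequenced with 1 library per mouse. These 8 libraries were taken by their labels out of 48 in the series, which crosses sex, genotype and dose, and all genes expressed in the livers are described. The doses went by gavage in water with 0.5% Tween 20 for 21 days, in mice 10 to 12 weeks of age on a normal diet. Both groups carry the same alleles. The murine genes Cyp2b9, Cyp2b10 and Cyp2b13 were deleted with Crispr/Cas9, and the mice carry a human transgene with CYP2B6, CYP2A13 and CYP2F1, and by their labels the groups differ in dose only. The transcripts of the human transgene were not analysed here.

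PFOS (perfluorooctanesulfonate) is a fully fluorinated surfactant shaped like a fatty acid, which the liver takes up and hardly breaks down. In rodent liver, fatty acids and their mimics bind the receptor PPARα, which switches on genes of peroxisomal and mitochondrial fatty acid oxidation. Foreign compounds act through the receptors CAR and PXR on genes of the Cyp2b, Cyp2c and Cyp3a families, whose enzymes oxidise drugs, steroids and fatty acids. The transcription factor NRF2 answers electrophiles and oxidants with genes for glutathione and conjugation, and the factor ATF4 answers amino acid shortage and other stress with genes for amino acid supply. CYP2B6, the enzyme for which the mice were humanized, is the human member of the family removed from them.

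The libraries held 47121954 to 49826998 counts at 10-PFOS and 47241383 to 58804802 counts at 0-PFOS, and 18150 to 18531 genes at 10-PFOS and 18450 to 19233 genes at 0-PFOS had a count. The 10 genes with the most counts took 16.2 to 17.0% of a library at 10-PFOS and 19.8 to 22.6% at 0-PFOS. No library was a copy of another (lowest chi-square per degree of freedom between libraries of 1 group, 37.8). Levels are given as CPM, a gene's counts scaled to the size of the library over tested genes with its TMM factor, and in the order of replicates 1 to 4. The first principal component (68.2% of the variance among the 8 libraries) separated the doses. Replicate 2 of 10-PFOS and replicate 1 of 0-PFOS most often lay outside their groups, and results that rest on them are given without them as well. All 10 hepatocyte markers were above 1 CPM in both groups, with summed levels of 40625 to 50105 CPM at 10-PFOS and 82165 to 111740 CPM at 0-PFOS. Most of that difference was albumin (Alb), and the other 9 markers summed to 17637 to 21087 CPM at 10-PFOS and 22887 to 25244 CPM at 0-PFOS.

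Reads were assigned to the deleted genes in every library. Cyp2b9 had 31.4, 39, 28.8 and 25.9 CPM at 10-PFOS, against 1.53, 0.910, 1.11 and 1.19 CPM at 0-PFOS (log2 fold change 4.72 ± 0.44, adjusted p = 1.7e-08). For Cyp2b10 the levels were 17.1, 22.7, 13.7 and 12.4 CPM at 10-PFOS, against 0.373, 0.405, 0.534 and 0.365 CPM at 0-PFOS (log2 fold change 5.30 ± 0.41, adjusted p = 8.0e-10), and for Cyp2b13 they were 5.48, 7.38, 5.79 and 4.35 CPM at 10-PFOS, against 0.331, 0.101, 0.205 and 0.0663 CPM at 0-PFOS (log2 fold change 5.06 ± 0.71, adjusted p = 4.8e-06). No 10-PFOS mouse overlapped with a 0-PFOS mouse in any of the 3 genes. Cyp2b9 and Cyp2b10 were also named as largest rises, for which lack of overlap was a condition. The 5 Cyp2b genes, these 3 included, summed to 48.89 to 78.85 CPM at 10-PFOS and 1.48 to 2.36 CPM at 0-PFOS. In Cyp2b-null females, which lack the human transgene, the sums were 45.89 to 58.01 CPM at 10-PFOS and 1.40 to 6.69 CPM at 0-PFOS. How these reads were placed, on remnants of the deleted genes or from similar sequences, was not tested.

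Of 13193 genes tested in females, 2944 (22.3%) were higher and 3226 (24.5%) lower at 10-PFOS at an adjusted p under 0.05 (quasi-likelihood test of edgeR with Benjamini-Hochberg adjustment). With a log2 fold change beyond 1 as well, 744 (5.64%) were higher and 1053 (7.98%) lower. The 4 mice of a group lay wholly above those of the other in 2736 genes (20.7%) and wholly below in 2759 (20.9%). The median log2 fold change of all tested genes was −0.05. It was −0.18 with libraries scaled by their totals alone, a shift of −0.12, and 2080 genes were then higher and 4110 lower, of which 572 and 1362 beyond a log2 fold change of 1. A member of a gene list counts as higher or lower at an adjusted p under 0.05 whatever its fold change, so that 22.3% and 24.5% are the shares beside which the list counts stand. As the lists were chosen with earlier results of these data known, this is a description only. Fold changes are log2 of 10-PFOS over 0-PFOS and are followed by their standard error.

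**Figure D1:**
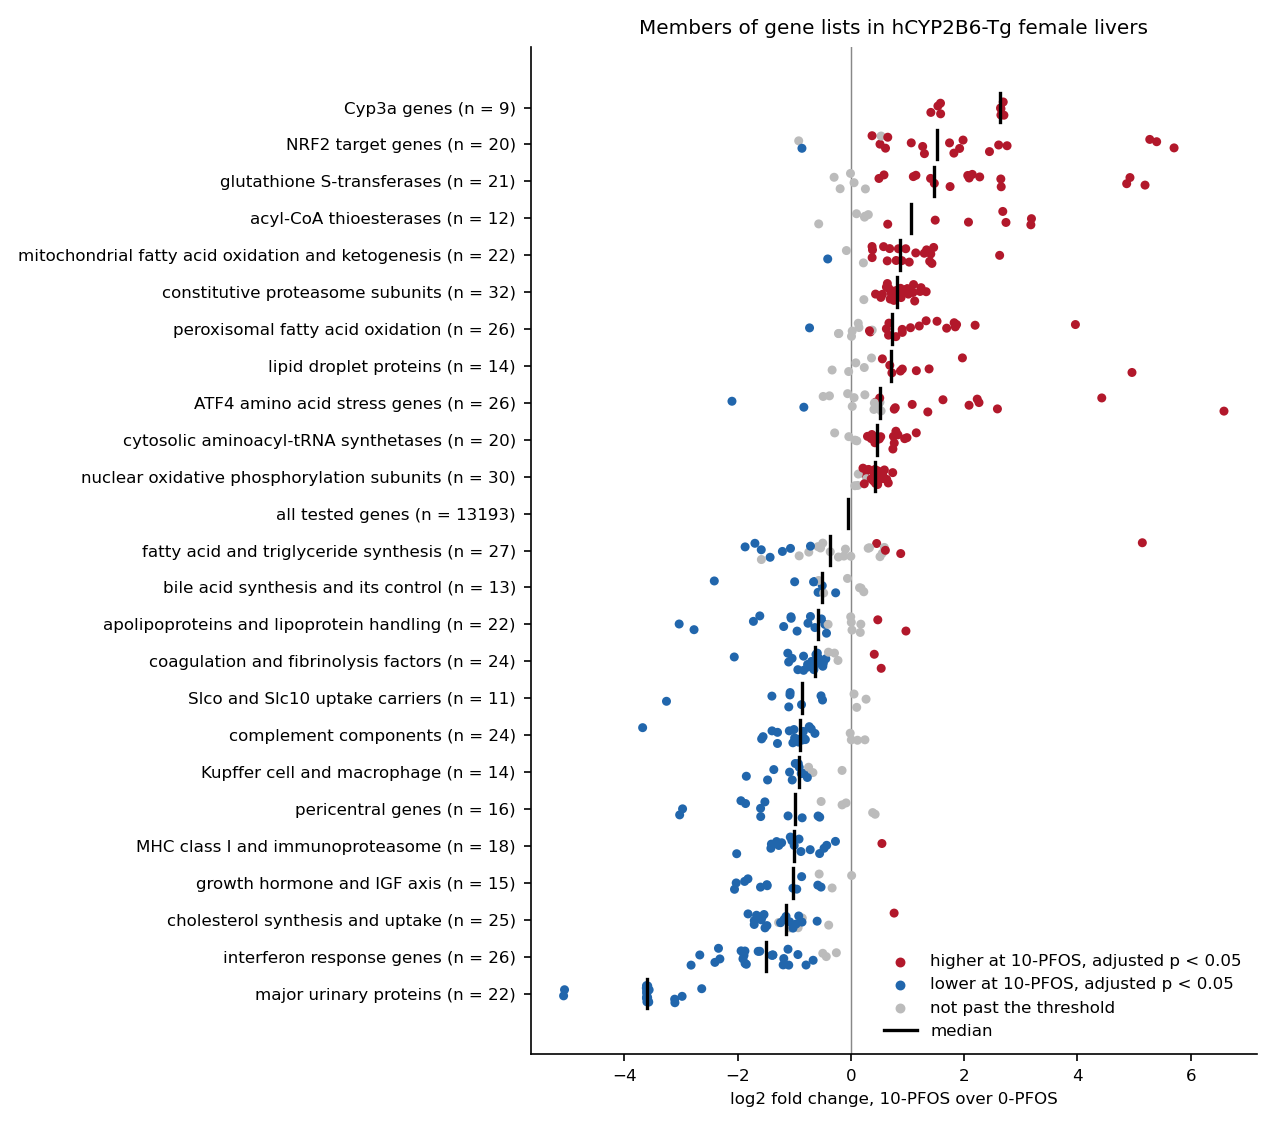
Log2 fold change of 10-PFOS over 0-PFOS (horizontal axis) for the tested members of gene lists, with only the median drawn for all tested genes. Each dot is a gene, coloured by whether it was higher, lower or not past an adjusted p of 0.05, and the black bar is the list's median. The proteasome, glutathione S-transferase and Cyp3a dots lie to the right of 0 almost throughout, and the major urinary protein and interferon dots to the left.

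Genes that oxidise fatty acids were higher at 10-PFOS, in peroxisomes and in mitochondria. Of 26 genes of peroxisomal oxidation 18 rose and 1 fell (median log2 fold change 0.73), and of 22 tested mitochondrial and ketone genes 19 rose and 1 fell (median 0.87). Summed over the peroxisomal list, 10-PFOS mice had 27278 to 33408 CPM and 0-PFOS mice 9800 to 12655 CPM. Ehhadh, the bifunctional enzyme of the peroxisomal spiral, had 7887, 6535, 7339.5 and 8179 CPM at 10-PFOS, against 315, 598, 526 and 479.5 CPM at 0-PFOS (log2 fold change 3.96 ± 0.22, adjusted p = 5.2e-12). Even the lowest 10-PFOS mouse lay far above the highest 0-PFOS mouse. Acaa1b, a thiolase of the same spiral, had 4320.0, 3043, 3765 and 4659.6 CPM at 10-PFOS, against 581, 1531, 1098 and 1121 CPM at 0-PFOS (log2 fold change 1.87 ± 0.21, adjusted p = 2.0e-07). Pex11a, which drives division of peroxisomes, averaged 211 ± 30.6 CPM at 10-PFOS and 46.1 ± 17.3 CPM at 0-PFOS (SD, n = 4 each), and no mice of the groups overlapped (log2 fold change 2.19 ± 0.19, adjusted p = 4.6e-09). The 1 member that fell was Acox3, an oxidase for branched chains, with 12.6, 11.2, 8.87 and 11 CPM at 10-PFOS, against 21.9, 14.6, 19 and 16.8 CPM at 0-PFOS (log2 fold change −0.73 ± 0.14, adjusted p = 1.3e-04).

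In mitochondria Pdk4, the kinase that holds pyruvate back from oxidation, had 68.5, 105, 109 and 83 CPM at 10-PFOS, against 16, 23.1, 13.3 and 6.67 CPM at 0-PFOS (log2 fold change 2.63 ± 0.53, adjusted p = 3.3e-04). Slc25a20, the carrier of acylcarnitines across the inner membrane, had 195, 233, 178 and 181 CPM at 10-PFOS, against 55.1, 86.4, 72 and 71.9 CPM at 0-PFOS (log2 fold change 1.46 ± 0.13, adjusted p = 4.3e-09). Both genes were higher in each 10-PFOS mouse than in any 0-PFOS mouse. Of 12 acyl-CoA thioesterases, which release fatty acids from CoA, 7 rose and none fell (median 1.07). Acot1 in the cytosol had 1101, 1082, 1072 and 1305 CPM at 10-PFOS, against 73.6, 205, 99.4 and 123 CPM at 0-PFOS (log2 fold change 3.19 ± 0.29, adjusted p = 9.6e-09), and its mitochondrial neighbour Acot2 had 967, 923, 914 and 1089 CPM at 10-PFOS, against 63.7, 171, 87.8 and 108 CPM at 0-PFOS (log2 fold change 3.18 ± 0.31, adjusted p = 3.1e-08). These sequences are near copies, so how their reads divide is uncertain.

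The omega-hydroxylases, P450 enzymes that oxidise the far end of fatty acids, split by subfamily. Of 15 genes 7 rose and 6 fell (median 0.27), and fold changes ran from −3.91 to 8.38. Cyp4a14, a classical PPARα target, had 8391, 9271, 8885 and 8682 CPM at 10-PFOS, against 781, 2263, 1378 and 1139 CPM at 0-PFOS (log2 fold change 2.66 ± 0.22, adjusted p = 3.6e-09). Cyp4f14, a hydroxylase of leukotrienes, went the other way, with 19.2, 14.9, 12.8 and 16.8 CPM at 10-PFOS, against 386, 139, 233 and 199.5 CPM at 0-PFOS (log2 fold change −3.91 ± 0.23, adjusted p = 1.5e-11). Neither gene showed overlap between the groups. Cyp4a12a, which female livers normally express little, is taken up with the genes of sex bias.

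**Figure D2:**
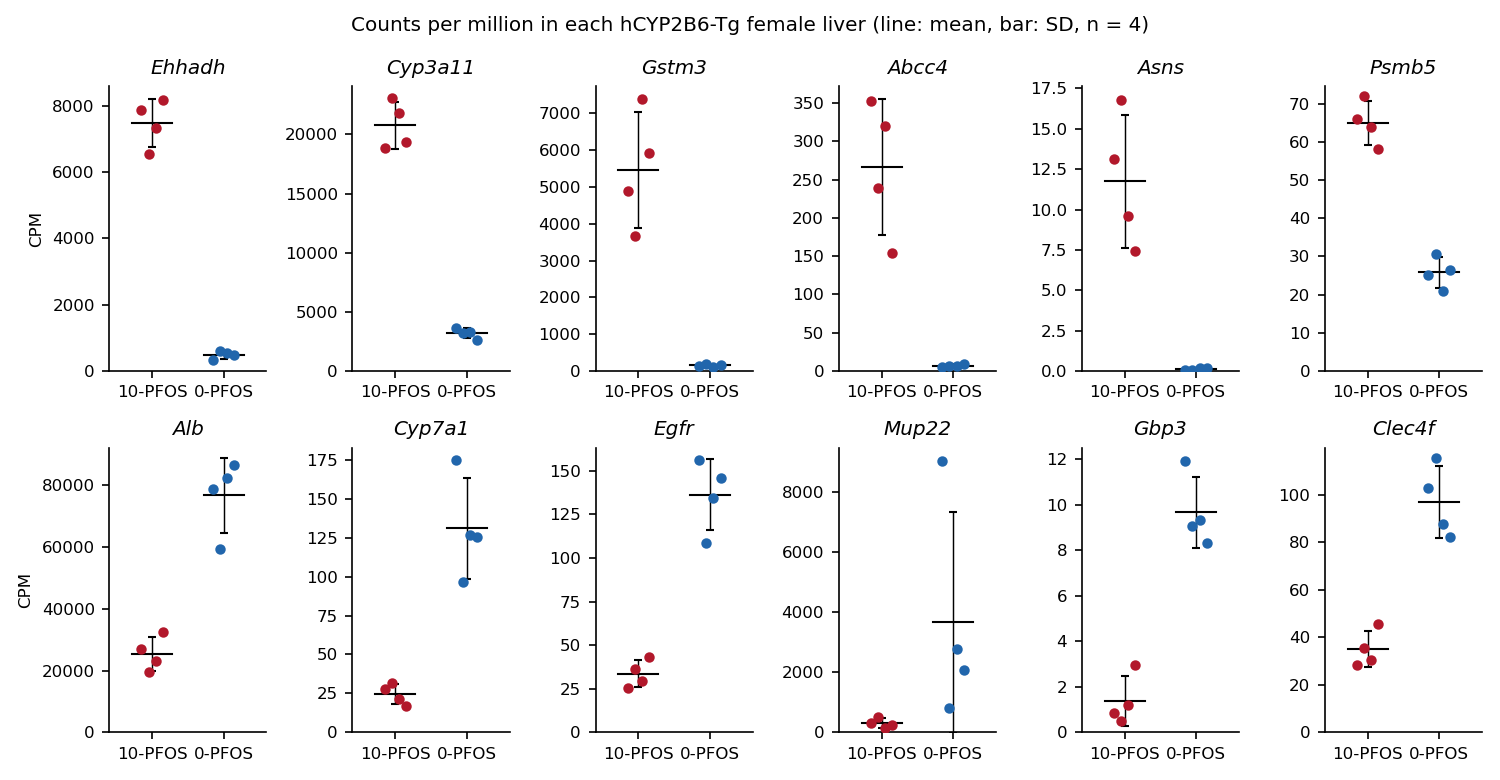
CPM of 12 genes (vertical axes, linear from 0, 1 panel per gene) in 10-PFOS mice (left in each panel) and 0-PFOS mice (right). Points are mice, lines group means and bars SD (n = 4). The groups do not overlap in any of the 12 panels, with Ehhadh, Cyp3a11, Gstm3, Abcc4, Asns and Psmb5 above their 0-PFOS levels and Alb, Cyp7a1, Egfr, Mup22, Gbp3 and Clec4f below. Gstm3, Abcc4, Asns and Mup22 are among the largest rises and falls, for which lack of overlap was a condition of naming.

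Uptake, activation and storage of fatty acids moved in part. Of 16 genes for uptake and binding 8 rose and 2 fell (median 0.42), and of 14 tested lipid droplet genes 9 rose and none fell (median 0.71). Lpl, lipoprotein lipase, which adult liver keeps low, had 167, 96.6, 165 and 247 CPM at 10-PFOS, against 22.2, 33.5, 23 and 16.9 CPM at 0-PFOS (log2 fold change 2.82 ± 0.27, adjusted p = 1.9e-08). Slc27a1, a fatty acid transporter typical of muscle and fat, had 89.7, 108, 67.5 and 64.9 CPM at 10-PFOS, against 8.74, 12.1, 15.2 and 14.6 CPM at 0-PFOS (log2 fold change 2.70 ± 0.34, adjusted p = 1.1e-06). Acsl1, the main liver enzyme that joins fatty acids to CoA, reached 1742, 1977, 1573 and 1811 CPM at 10-PFOS, against 853, 985, 879 and 853 CPM at 0-PFOS (log2 fold change 0.99 ± 0.12, adjusted p = 6.5e-07). In all 3 genes every 10-PFOS mouse was above every 0-PFOS mouse. Fabp5, the epidermal fatty acid binding protein, fell to 1.65, 2.24, 1.32 and 3.12 CPM at 10-PFOS, against 53.1, 21.4, 41.4 and 26.2 CPM at 0-PFOS (log2 fold change −4.09 ± 0.50, adjusted p = 8.0e-07).

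Cidec, which fuses lipid droplets and is best known from fat tissue, had 26.1, 53.5, 27.9 and 17.2 CPM at 10-PFOS, against 0.290, 1.15, 1.19 and 1.33 CPM at 0-PFOS (log2 fold change 4.96 ± 0.42, adjusted p = 3.5e-09). Replicate 2 was the highest of the 10-PFOS mice, and the lowest of them was still far above all 0-PFOS mice. Plin2, the common coat protein of liver droplets, averaged 669 ± 132 CPM at 10-PFOS and 356 ± 76.5 CPM at 0-PFOS (SD, n = 4 each; log2 fold change 0.91 ± 0.22, adjusted p = 0.0018), and Pnpla2, the lipase that opens the droplet, averaged 196 ± 41.5 CPM at 10-PFOS and 75.2 ± 17 CPM at 0-PFOS (SD, n = 4 each; log2 fold change 1.38 ± 0.21, adjusted p = 1.2e-05). Fitm1, which helps droplets bud, had 24.5, 20.8, 18.6 and 33.7 CPM at 10-PFOS, against 4.72, 6.95, 5.09 and 8.09 CPM at 0-PFOS (log2 fold change 1.97 ± 0.26, adjusted p = 2.6e-06). All 3 genes kept the groups apart.

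Synthesis of fatty acids and triglycerides did not move as 1 group. Of 27 genes 4 rose and 7 fell (median −0.36), and fold changes ran from −1.87 to 5.14. Neither share was far above that of all tested genes. Mogat1, an acyltransferase that makes diacylglycerol, had 6.27, 4.26, 5.33 and 7.52 CPM at 10-PFOS, against 0.0414, 0.405, 0.123 and 0.0663 CPM at 0-PFOS (log2 fold change 5.14 ± 0.49, adjusted p = 1.7e-08; 6.21 without 0-PFOS replicate 2). Lpin1, a phosphatase of phosphatidic acid and a coactivator in the fasted liver, had 14.8, 32.9, 18.7 and 18.3 CPM at 10-PFOS, against 62.6, 51.4, 107 and 87.7 CPM at 0-PFOS (log2 fold change −1.87 ± 0.47, adjusted p = 0.0023). Elovl5, which lengthens polyunsaturated fatty acids, had 176, 97.9, 107 and 289.7 CPM at 10-PFOS, against 524, 532, 629 and 482 CPM at 0-PFOS (log2 fold change −1.69 ± 0.30, adjusted p = 8.5e-05). In these 3 genes the groups were apart. With only the 8 libraries fitted 7 members were higher, and with library totals 11 were lower.

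Cholesterol genes were mostly lower, but the count rested on single mice. Of 25 genes of synthesis and uptake 18 fell and 1 rose (median −1.14). Without overlap between the groups 6 were lower, a share close to the 20.9% of all tested genes. Pmvk, a kinase of the mevalonate pathway, had 8.66, 8.87, 9.07 and 20.7 CPM at 10-PFOS, against 63, 34.5, 35.3 and 33.5 CPM at 0-PFOS (log2 fold change −1.81 ± 0.36, adjusted p = 2.4e-04). Replicate 4 of 10-PFOS and replicate 1 of 0-PFOS each stood above the rest of their group. Nsdhl, which removes methyl groups from the sterol ring, had 15.8, 5.44, 19.4 and 37.1 CPM at 10-PFOS, against 122, 30.1, 59.5 and 41.8 CPM at 0-PFOS (log2 fold change −1.70 ± 0.46, adjusted p = 0.0043), with overlap at 10-PFOS replicate 4. The lower count was 11 without 10-PFOS replicate 2, 9 without 0-PFOS replicate 1, 6 without both and 11 with only the 8 libraries fitted.

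Among 22 tested apolipoproteins and lipoprotein enzymes 14 fell and 2 rose (median −0.58). Apoa1, the main protein of high density lipoprotein, had 1810.4, 2346, 2517 and 2238 CPM at 10-PFOS, against 4831, 4809, 4659.9 and 4239 CPM at 0-PFOS (log2 fold change −1.06 ± 0.19, adjusted p = 7.8e-05), and Apof, a small lipid transfer inhibitor, had 106, 124, 119 and 115 CPM at 10-PFOS, against 421, 367, 372 and 371 CPM at 0-PFOS (log2 fold change −1.72 ± 0.10, adjusted p = 1.2e-11). Both stood apart by group, as did the endothelial lipase Lipg, with 1.65, 0.659, 1.23 and 3.3 CPM at 10-PFOS, against 10.4, 9.81, 14.7 and 21.1 CPM at 0-PFOS (log2 fold change −3.03 ± 0.36, adjusted p = 5.5e-07). Mttp, the protein that loads triglyceride onto nascent lipoproteins, rose to 469, 498, 524 and 436 CPM at 10-PFOS, against 241, 232, 257 and 252 CPM at 0-PFOS (log2 fold change 0.97 ± 0.13, adjusted p = 3.3e-06). Angptl8, an insulin-induced inhibitor of Lpl, had 4.09, 3.91, 4.97 and 4.09 CPM at 10-PFOS, against 23.9, 14.9, 29.5 and 47.9 CPM at 0-PFOS (log2 fold change −2.77 ± 0.40, adjusted p = 6.7e-06), and all 10-PFOS mice lay within a narrow band far below the 0-PFOS mice. Of 13 genes of bile acid synthesis 7 fell and none rose (median −0.51). Cyp7a1, the rate-limiting enzyme of bile acid synthesis, had 28.2, 31.7, 21.4 and 17.2 CPM at 10-PFOS, against 175, 96.4, 127 and 126 CPM at 0-PFOS (log2 fold change −2.41 ± 0.46, adjusted p = 2.0e-04), again with no overlap.

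Enzymes that make and degrade oxylipins, the oxidised products of polyunsaturated fatty acids, were of interest because CYP2B6 itself makes some of them. Of 22 tested genes 10 rose and 5 fell (median 0.25; 3 fell without 0-PFOS replicate 1). The epoxide hydrolases turn fatty acid epoxides into diols. Ephx2, the soluble form, had 1472, 1437, 1407 and 1368 CPM at 10-PFOS, against 346, 543, 489 and 449 CPM at 0-PFOS (log2 fold change 1.64 ± 0.13, adjusted p = 8.0e-10), and Ephx1, the microsomal form, had 1179, 1147, 1361 and 1059.8 CPM at 10-PFOS, against 204, 382, 233 and 241 CPM at 0-PFOS (log2 fold change 2.16 ± 0.15, adjusted p = 2.1e-10). In both genes the 10-PFOS mice were clustered well above the 0-PFOS mice. Pla2g12a, a secreted phospholipase, averaged 77.2 ± 5.68 CPM at 10-PFOS and 18 ± 5.96 CPM at 0-PFOS (SD, n = 4 each; log2 fold change 2.10 ± 0.19, adjusted p = 9.7e-09). Pla2g4a, the cytosolic phospholipase that frees arachidonic acid, was low throughout and lower at 10-PFOS, with 0.479, 0.746, 0.228 and 0.484 CPM at 10-PFOS, against 1.7, 1.75, 1.64 and 1.13 CPM at 0-PFOS (log2 fold change −1.68 ± 0.38, adjusted p = 0.0010). Ptges, the inducible synthase of prostaglandin E2, had 0.740, 2.06, 1.82 and 2.07 CPM at 10-PFOS, against 0.0414, 0.0674, 0.164 and 0.0663 CPM at 0-PFOS (log2 fold change 4.28 ± 0.63, adjusted p = 7.6e-06), so that its difference lies between a level near 0 and a low one.

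P450 genes that answer to CAR and PXR were raised throughout some families and split in others. All 9 Cyp3a genes rose (median 2.64), and their summed level was 80341 to 96686 CPM at 10-PFOS and 12188 to 16834 CPM at 0-PFOS. Cyp3a11, the main drug-oxidising Cyp3a of mouse liver, had 18861, 23067, 21778 and 19354 CPM at 10-PFOS, against 3652, 3232, 3263 and 2620.4 CPM at 0-PFOS (log2 fold change 2.70 ± 0.15, adjusted p = 1.2e-11). The groups were far apart, although reads of Cyp3a copies cannot be told apart with certainty. Reads assigned to all 5 Cyp2b genes, the 3 deleted ones included, were higher (median 5.30). As the placement of reads on the deleted genes was not tested, this median is not read as expression of the family. Of 15 Cyp2c genes 9 rose and 6 fell. Cyp2c29, a major epoxygenase of arachidonic acid, had 9793, 9535, 10371 and 8936 CPM at 10-PFOS, against 1607, 1799, 1357 and 1541 CPM at 0-PFOS (log2 fold change 2.62 ± 0.13, adjusted p = 2.2e-12). Cyp2c55, normally expressed in the gut and low in liver, had 443, 269, 502 and 591 CPM at 10-PFOS, against 6.63, 6.84, 9.45 and 6.93 CPM at 0-PFOS (log2 fold change 5.92 ± 0.31, adjusted p = 3.0e-12), and Cyp2c69, a female-biased form, fell to 261, 241, 267 and 281 CPM at 10-PFOS, against 2300.1, 1143, 1145 and 1040.3 CPM at 0-PFOS (log2 fold change −2.42 ± 0.23, adjusted p = 1.5e-08). Cyp2c69 shares reads with its close copies Cyp2c40, Cyp2c67 and Cyp2c68.

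Of 22 tested genes of other P450 families and the flavin monooxygenases 11 rose and 4 fell. Fmo5 had 1595, 2212, 1794 and 1417 CPM at 10-PFOS, against 266, 241, 275 and 328 CPM at 0-PFOS (log2 fold change 2.66 ± 0.24, adjusted p = 1.2e-08), and the groups were far apart. Cyp26a1, which degrades retinoic acid, averaged 56.4 ± 37.6 CPM at 10-PFOS and 7.75 ± 2.75 CPM at 0-PFOS (SD, n = 4 each; log2 fold change 2.86 ± 0.50, adjusted p = 6.8e-05). Cyp2e1, the pericentral oxidase of ethanol and acetaminophen, had 4758, 5754, 3888 and 4377 CPM at 10-PFOS, against 4700.3, 5373, 5541 and 5285 CPM at 0-PFOS, and its difference was within the spread of the mice (log2 fold change −0.15 ± 0.14, adjusted p = 0.39). Of 15 genes of electron supply and heme synthesis 7 rose and 1 fell. Por, the reductase that feeds electrons to every microsomal P450, had 1351, 1746, 1382 and 1085 CPM at 10-PFOS, against 274, 445, 334 and 549 CPM at 0-PFOS (log2 fold change 1.80 ± 0.23, adjusted p = 1.4e-06), and Alas1, the limiting step of heme synthesis, had 1116, 1225, 1210.0 and 709.6 CPM at 10-PFOS, against 65.8, 289, 400.1 and 334 CPM at 0-PFOS (log2 fold change 1.97 ± 0.43, adjusted p = 7.3e-04). Neither gene overlapped between groups, and 0-PFOS replicate 1 was lowest for both.

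Genes of glutathione conjugation were higher. Of 21 tested glutathione S-transferases 16 rose and none fell (median 1.47), and their sum was 19833 to 28109 CPM at 10-PFOS and 5429 to 6757 CPM at 0-PFOS. Gstm3 had 4888, 3673, 7379 and 5935 CPM at 10-PFOS, against 136, 188, 115 and 159 CPM at 0-PFOS (log2 fold change 5.19 ± 0.34, adjusted p = 5.8e-11), and Gstm1 had 7036, 6914, 10029.8 and 7709 CPM at 10-PFOS, against 897, 1724, 995 and 1418 CPM at 0-PFOS (log2 fold change 2.65 ± 0.18, adjusted p = 1.4e-10). Replicate 3 was the highest 10-PFOS mouse for both. Gsta1, an NRF2 target whose reads are shared with Gsta2, averaged 719 ± 172 CPM at 10-PFOS and 23.6 ± 16.3 CPM at 0-PFOS (SD, n = 4 each; log2 fold change 4.93 ± 0.52, adjusted p = 8.7e-08). Of 20 NRF2 target genes 17 rose and 1 fell (median 1.52). Cbr3, a carbonyl reductase, had 35.6, 38, 49.8 and 15.7 CPM at 10-PFOS, against 1.04, 0.978, 0.616 and 0.663 CPM at 0-PFOS (log2 fold change 5.40 ± 0.32, adjusted p = 1.5e-11). Ugdh, which supplies the sugar for glucuronides, reached 605, 538, 749 and 478 CPM at 10-PFOS, against 119.8, 87.8, 94.8 and 86.1 CPM at 0-PFOS (log2 fold change 2.61 ± 0.17, adjusted p = 4.6e-11).

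Other conjugating families were mixed. Of 17 tested genes of the glucuronosyltransferase list 10 rose and 6 fell, with Ugt1a9 at 176, 136, 167 and 164 CPM at 10-PFOS, against 28.6, 42.1, 33.9 and 42.3 CPM at 0-PFOS (log2 fold change 2.13 ± 0.20, adjusted p = 1.9e-08) and Ugt1a5 at 23.8, 14.2, 17.7 and 30.4 CPM at 10-PFOS, against 66, 47.6, 92 and 75.2 CPM at 0-PFOS (log2 fold change −1.70 ± 0.26, adjusted p = 1.3e-05). These genes share all but their first exon, and their groups were apart in opposite directions. Of 13 tested carboxylesterases 7 rose and 4 fell. Ces2c had 146, 143, 168 and 134 CPM at 10-PFOS, against 25, 11, 18.7 and 13.6 CPM at 0-PFOS (log2 fold change 3.11 ± 0.26, adjusted p = 3.5e-09), and Ces3b, an esterase of lipid metabolism, had 178, 121, 110.5 and 183 CPM at 10-PFOS, against 1036, 378, 785 and 599 CPM at 0-PFOS (log2 fold change −2.24 ± 0.23, adjusted p = 7.0e-08). Of 18 tested sulfotransferases and sulfate donors 2 rose and 5 fell, counts not far above the shares of all tested genes. The list's median of 0.35 changed sign without 10-PFOS replicate 2 and 0-PFOS replicate 1. Sult1e1, the estrogen sulfotransferase, had 18.1, 44, 50.2 and 35.9 CPM at 10-PFOS, against 1.53, 0.270, 0.698 and 1.16 CPM at 0-PFOS (log2 fold change 5.35 ± 1.20, adjusted p = 9.0e-04). Sult3a1, a female-biased form, had 2.78, 10.4, 1.91 and 2.33 CPM at 10-PFOS, against 115, 15.3, 33.2 and 25.2 CPM at 0-PFOS (log2 fold change −3.43 ± 0.59, adjusted p = 5.5e-05), with 0-PFOS replicate 1 far above and 10-PFOS replicate 2 above the rest of their groups. Its log2 fold change was −2.49 without the 0-PFOS mouse and −4.33 without the 10-PFOS mouse.

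Uptake carriers of the Slco and Slc10 families were lower, and those of the Slc22 family moved both ways. Of 11 Slco and Slc10 carriers, which bring bile acids, hormones and drugs into hepatocytes, 8 fell and none rose (median −0.87). Slco1b2, the liver-specific organic anion carrier, had 454, 462, 429 and 528 CPM at 10-PFOS, against 979.9, 877, 1126 and 962 CPM at 0-PFOS (log2 fold change −1.07 ± 0.11, adjusted p = 5.1e-08), with about 1 log2 between groups that did not overlap. Slco1a1 had 3.59, 4.52, 4.19 and 3.47 CPM at 10-PFOS, against 112, 3.3, 25.2 and 10.3 CPM at 0-PFOS (log2 fold change −3.25 ± 0.70, adjusted p = 6.3e-04). Here 0-PFOS replicate 2 was below all 4 of the 10-PFOS mice, and without 0-PFOS replicate 1 the log2 fold change was −1.71. Of 12 Slc22 carriers of organic ions 8 fell and 4 rose (median −1.35). Slc22a7, a carrier of organic anions, had 0.0870, 0.373, 0.274 and 0.352 CPM at 10-PFOS, against 23.7, 2.97, 9.78 and 3.83 CPM at 0-PFOS (log2 fold change −5.20 ± 0.56, adjusted p = 1.3e-07), and without 0-PFOS replicate 1, the highest mouse, the log2 fold change was −4.33. Slc22a5, the carnitine carrier, had 66.3, 95.4, 80.1 and 69.4 CPM at 10-PFOS, against 21, 48.3, 28 and 31.8 CPM at 0-PFOS (log2 fold change 1.27 ± 0.20, adjusted p = 2.3e-05), without overlap.

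Of 15 ABC exporters 5 rose and 3 fell, and their median of 0.01 was negative with library totals. Abcc4, which pumps organic anions and bile acids back to the blood, had 352, 239, 319.6 and 154 CPM at 10-PFOS, against 4.47, 6.98, 6.37 and 9.59 CPM at 0-PFOS (log2 fold change 5.28 ± 0.31, adjusted p = 1.5e-11). Abcc2, the canalicular pump for conjugates, had 1174, 1007, 1201 and 754 CPM at 10-PFOS, against 312, 263, 330.0 and 364 CPM at 0-PFOS (log2 fold change 1.70 ± 0.16, adjusted p = 1.7e-08), and Abcg2, a canalicular pump of sulfates and dietary toxins, averaged 112 ± 15.4 CPM at 10-PFOS and 27 ± 2.92 CPM at 0-PFOS (SD, n = 4 each; log2 fold change 2.05 ± 0.15, adjusted p = 5.8e-10). In these 3 genes the lowest 10-PFOS mouse, replicate 4 each time, was above all 0-PFOS mice. Abcb11, the bile salt export pump, was lower, with 281, 208, 239.6 and 399.9 CPM at 10-PFOS, against 652, 472, 529 and 583 CPM at 0-PFOS (log2 fold change −0.99 ± 0.16, adjusted p = 2.6e-05).

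The receptors themselves moved by less than 1 log2. Of 21 nuclear receptors and lipid-sensing factors 3 rose and 6 fell (median −0.22; 11 fell with library totals), and fold changes ran from −0.65 to 0.70. The counts of 3 and 6 were not far above the shares of all tested genes. Pparg, a receptor of fat storage, had 18.8, 16.2, 22.2 and 17.2 CPM at 10-PFOS, against 8.45, 12.7, 13.6 and 10.9 CPM at 0-PFOS (log2 fold change 0.70 ± 0.16, adjusted p = 0.0011), and Thrb, the liver's thyroid hormone receptor, had 15.9, 18.7, 21 and 17 CPM at 10-PFOS, against 33.7, 19.2, 31.5 and 29.8 CPM at 0-PFOS (log2 fold change −0.65 ± 0.14, adjusted p = 7.3e-04), with overlap at 10-PFOS replicate 3. Values of Ppara and of Nr1i2, which encode PPARα and PXR, lie outside the rule for named genes and were chosen after they were seen. Ppara had 137, 191, 178 and 206 CPM at 10-PFOS, against 226, 217, 279.5 and 342 CPM at 0-PFOS (log2 fold change −0.58 ± 0.16, adjusted p = 0.0058). Nr1i2 had 68.4, 78.4, 76 and 75.6 CPM at 10-PFOS, against 45.4, 65.2, 52.7 and 54.2 CPM at 0-PFOS (log2 fold change 0.46 ± 0.14, adjusted p = 0.010), and its adjusted p was 0.091 with library totals and 0.082 without the libraries that stand apart.

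Transcripts of the growth hormone axis were lower, and sex-biased liver genes moved in both directions. Pulses of growth hormone, through STAT5b, set many sex differences of mouse liver. Of 15 tested genes of the growth hormone and IGF axis 12 fell and none rose (median −1.02). Socs2, a feedback inhibitor and direct STAT5b target, had 4.0, 8.03, 14.6 and 19.5 CPM at 10-PFOS, against 28.7, 47.8, 55.2 and 59.8 CPM at 0-PFOS (log2 fold change −2.05 ± 0.45, adjusted p = 6.6e-04). Egfr, whose liver level depends on growth hormone, had 25.3, 36.2, 29.5 and 43 CPM at 10-PFOS, against 156, 109, 134 and 146 CPM at 0-PFOS (log2 fold change −2.02 ± 0.26, adjusted p = 1.8e-06), and Prlr, the prolactin receptor, had 80.7, 61.9, 67.3 and 86.4 CPM at 10-PFOS, against 378, 199, 252 and 258 CPM at 0-PFOS (log2 fold change −1.88 ± 0.17, adjusted p = 1.1e-08). All mice of 10-PFOS were below all mice of 0-PFOS in these genes. The same was so of Igf1, the circulating growth factor made by the liver, at 180.0 ± 24.4 CPM at 10-PFOS and 503 ± 70.7 CPM at 0-PFOS (SD, n = 4 each; log2 fold change −1.48 ± 0.14, adjusted p = 1.6e-08), which was chosen after its values were seen, and of its binding protein Igfbp4, at 581 ± 132 CPM at 10-PFOS and 1127 ± 79.8 CPM at 0-PFOS (SD, n = 4 each; log2 fold change −0.95 ± 0.21, adjusted p = 6.3e-04).

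Of 25 female-biased genes 15 fell and 6 rose (median −1.88), and of 20 tested male-biased genes 11 fell and 6 rose (median −0.74). In sum the female-biased list was higher, at 63816 to 76646 CPM at 10-PFOS and 14065 to 19242 CPM at 0-PFOS. Cyp3a16 and Cyp3a41a were among its members that rose. The male-biased sum was 13668.5 to 14084.6 CPM at 10-PFOS and 14397 to 35953 CPM at 0-PFOS, with Mup21 among its members that fell. The largest falls of named genes were in the female-biased list. A1bg, which encodes a secreted glycoprotein, had 0.0435, 0.220, 0 and 0.0879 CPM at 10-PFOS, against 318, 12.4, 21.8 and 8.03 CPM at 0-PFOS (log2 fold change −9.96 ± 1.35, adjusted p = 2.9e-06), with 0-PFOS replicate 1 far above its group, and without that mouse the log2 fold change was −7.28. Adgrf1, an adhesion receptor, had 0.0870, 0, 0.0456 and 0 CPM at 10-PFOS, against 15.7, 10.3, 14.9 and 17.2 CPM at 0-PFOS (log2 fold change −8.68 ± 0.57, adjusted p = 6.7e-11), and Ntrk2, a neurotrophin receptor, had 0.0435, 0.220, 0.137 and 0.440 CPM at 10-PFOS, against 10.5, 9.95, 15 and 8.16 CPM at 0-PFOS (log2 fold change −5.68 ± 0.57, adjusted p = 4.0e-08). All 3 were at or near 0 in 10-PFOS mice, so their fold changes rest on few counts there, and without single mice they ran from −9.73 to −8.28 for Adgrf1 and from −6.33 to −5.34 for Ntrk2. Cyp4a12a, a male-biased hydroxylase of arachidonic acid, had 895, 862, 798 and 823 CPM at 10-PFOS, against 2.28, 3.68, 3.0 and 1.16 CPM at 0-PFOS (log2 fold change 8.38 ± 0.37, adjusted p = 2.0e-13). Its reads are shared with Cyp4a12b. All 22 major urinary protein genes, encoding pheromone carriers secreted by the liver into urine, fell (median −3.60), with fold changes between −5.07 and −2.63. Their sum was 2067 to 7879 CPM at 10-PFOS and 12995 to 134299 CPM at 0-PFOS. Mup22 had 308, 520.3, 132 and 239 CPM at 10-PFOS, against 9018, 800.1, 2764 and 2059 CPM at 0-PFOS (log2 fold change −3.61 ± 0.56, adjusted p = 1.5e-05), and 0-PFOS replicate 1 was far above the others. Without that mouse the log2 fold change of Mup22 was −2.65. Mup copies are nearly identical, so the family is better read as a sum than gene by gene.

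Genes of the daily clock showed few calls. Of 11 clock genes that peak by day 1 fell and none rose, and of 5 that peak at dawn 1 fell. Hlf, a clock output factor, had 17.4, 29.1, 24.6 and 19.3 CPM at 10-PFOS, against 27.3, 30.7, 40.3 and 52.1 CPM at 0-PFOS (log2 fold change −0.74 ± 0.16, adjusted p = 7.0e-04), and Nfil3, its repressing counterpart, had 4.31, 9.75, 3.65 and 2.55 CPM at 10-PFOS, against 16.8, 14, 8.75 and 5.77 CPM at 0-PFOS (log2 fold change −1.16 ± 0.34, adjusted p = 0.0075), each with overlap between groups. Of 20 genes of glucose output, glycogen and insulin signalling 9 fell and 1 rose (median −0.63). Ppp1r3c, which brings a phosphatase to glycogen, had 9.18, 9.61, 7.16 and 12.9 CPM at 10-PFOS, against 53.2, 34.5, 32.4 and 38.7 CPM at 0-PFOS (log2 fold change −2.03 ± 0.33, adjusted p = 3.5e-05). Pklr, liver pyruvate kinase, had 38.2, 19, 58 and 63.7 CPM at 10-PFOS, against 123, 124, 179 and 214 CPM at 0-PFOS (log2 fold change −1.84 ± 0.35, adjusted p = 1.7e-04), and the member that rose was Pcx, pyruvate carboxylase, with 533, 546, 514 and 465 CPM at 10-PFOS, against 345, 321, 366 and 362 CPM at 0-PFOS (log2 fold change 0.56 ± 0.13, adjusted p = 0.0013). The groups were apart in all 3.

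Most pericentral genes, expressed by hepatocytes near the central vein, were lower, and periportal genes moved both ways. Of 16 pericentral genes 11 fell and none rose (median −0.98). Cyp2e1, the most expressed member of the list, was not among those that fell (log2 fold change −0.15). Lgr5, a receptor that amplifies Wnt signals in the innermost hepatocytes, had 1.13, 0.615, 0.410 and 0.659 CPM at 10-PFOS, against 7.0, 5.23, 5.01 and 5.74 CPM at 0-PFOS (log2 fold change −3.02 ± 0.28, adjusted p = 1.2e-08). Slc1a2, the glutamate carrier of the same cells, had 13.1, 27.5, 12.1 and 21.5 CPM at 10-PFOS, against 158, 108, 139.9 and 177 CPM at 0-PFOS (log2 fold change −2.97 ± 0.37, adjusted p = 8.6e-07). Slc13a3, a dicarboxylate carrier, averaged 3.94 ± 2.08 CPM at 10-PFOS and 15.1 ± 7.7 CPM at 0-PFOS (SD, n = 4 each; log2 fold change −1.94 ± 0.30, adjusted p = 1.5e-05), with 10-PFOS replicate 2 above its group. Of 21 genes of the urea cycle and periportal amino acid breakdown 8 fell and 3 rose (median −0.22). Ass1, which builds argininosuccinate, had 1329, 1807, 829.6 and 1083 CPM at 10-PFOS, against 2186, 2352, 2104 and 2672 CPM at 0-PFOS (log2 fold change −0.88 ± 0.20, adjusted p = 0.0012), and Gls2, liver glutaminase, had 196, 168, 131 and 173 CPM at 10-PFOS, against 307, 338, 338 and 422 CPM at 0-PFOS (log2 fold change −1.07 ± 0.16, adjusted p = 1.1e-05). Tdo2, which opens the ring of tryptophan, rose to 1159.7, 1836, 1306 and 977 CPM at 10-PFOS, against 450.2, 535, 479 and 473 CPM at 0-PFOS (log2 fold change 1.45 ± 0.22, adjusted p = 1.4e-05).

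Genes of amino acid supply under ATF4 were raised in part. Stretches of RefSeq promoters (build GRCm38.p6, 5′ to 3′ on the strand of the gene, lying before its start) are shown for 3 members of the list, 1 that rose from a level near 0, 1 other that rose and 1 that fell, with the core of the amino acid response element in capitals (TGATGNAA, on either strand).
Asns (chr6:7693210-7693287, minus strand): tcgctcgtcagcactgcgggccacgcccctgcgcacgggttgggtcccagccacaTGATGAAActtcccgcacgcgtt
Vldlr (chr19:27216770-27216882, plus strand): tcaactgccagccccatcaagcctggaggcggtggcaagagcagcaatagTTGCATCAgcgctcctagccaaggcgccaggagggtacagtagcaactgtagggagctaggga
Chac1 (chr2:119350994-119351111, plus strand): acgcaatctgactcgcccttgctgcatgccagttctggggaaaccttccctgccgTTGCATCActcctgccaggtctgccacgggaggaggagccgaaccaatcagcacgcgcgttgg
Vldlr was chosen for this after its values were seen. The core is in the windows from 250 bases before to 50 after the start of 9 of 25 genes of the list that have one (36%) and of 1219 of all 27025 genes (4.51%). Of the 8 tested genes with a match 4 rose and 1 fell (median 0.52), and of the 15 without one 8 rose and 1 fell (median 0.51).

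In all, 13 of 26 tested ATF4 genes rose and 2 fell (median 0.51). Asns, asparagine synthetase, had 13.1, 16.8, 9.62 and 7.43 CPM at 10-PFOS, against 0.0414, 0.0674, 0.205 and 0.166 CPM at 0-PFOS (log2 fold change 6.59 ± 0.68, adjusted p = 5.9e-08), and even the lowest 10-PFOS mouse was far above every 0-PFOS mouse. Psat1, in serine synthesis, had 13.4, 9.22, 10.3 and 10.6 CPM at 10-PFOS, against 0.414, 0.573, 0.411 and 0.597 CPM at 0-PFOS (log2 fold change 4.43 ± 0.40, adjusted p = 1.1e-08). Trib3, a pseudokinase and feedback inhibitor of the pathway, had 85.2, 39.5, 39.1 and 50.2 CPM at 10-PFOS, against 7.54, 10.3, 6.61 and 11.1 CPM at 0-PFOS (log2 fold change 2.59 ± 0.35, adjusted p = 2.6e-06). These genes kept the groups apart, as did Vldlr, a lipoprotein receptor, at 72.5, 49, 71.9 and 69.4 CPM at 10-PFOS, against 9.09, 16.6, 10.6 and 19.6 CPM at 0-PFOS (log2 fold change 2.23 ± 0.27, adjusted p = 5.4e-07). Chac1, which degrades glutathione, was lower, with 0.131, 0.746, 0.319 and 0.484 CPM at 10-PFOS, against 1.99, 2.87, 1.07 and 1.29 CPM at 0-PFOS (log2 fold change −2.10 ± 0.68, adjusted p = 0.014). Of 20 cytosolic aminoacyl-tRNA synthetases, the enzymes that charge tRNA, 16 rose and none fell (median 0.46), with fold changes between −0.29 and 1.16. The largest was that of Lars, for leucine, with 42.9, 40.7, 37.3 and 28.1 CPM at 10-PFOS, against 18.3, 16.5, 15.7 and 16.4 CPM at 0-PFOS (log2 fold change 1.16 ± 0.15, adjusted p = 2.2e-06), and Iars, for isoleucine, averaged 45.1 ± 7.28 CPM at 10-PFOS and 23.4 ± 3.0 CPM at 0-PFOS (SD, n = 4 each; log2 fold change 0.95 ± 0.14, adjusted p = 9.7e-06).

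Genes of the proteasome were higher as a set of subunits. Of 32 genes for the constitutive proteasome, the particle that degrades ubiquitin-tagged proteins, 31 rose and none fell (median 0.81), and fold changes ran from 0.23 to 1.33. In all 32 the 4 mice at 10-PFOS lay above the 4 at 0-PFOS, against 20.7% of all tested genes. The summed level was 3030 to 3168 CPM at 10-PFOS and 1560 to 1860 CPM at 0-PFOS. Psmb5, the catalytic subunit with chymotrypsin-like activity, had 66, 72, 63.7 and 58 CPM at 10-PFOS, against 25.2, 30.7, 21 and 26.4 CPM at 0-PFOS (log2 fold change 1.33 ± 0.11, adjusted p = 3.6e-09). Psmd4, a ubiquitin receptor, had 128, 137, 129.9 and 129 CPM at 10-PFOS, against 59.8, 65.7, 47.1 and 49.5 CPM at 0-PFOS (log2 fold change 1.24 ± 0.11, adjusted p = 3.8e-09), and Psmd2, a base subunit, had 194, 184, 196 and 195 CPM at 10-PFOS, against 131, 91, 96 and 94.6 CPM at 0-PFOS (log2 fold change 0.90 ± 0.12, adjusted p = 2.0e-06). The spread within 10-PFOS was small in each.

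Chaperone and stress genes moved in part. Of 16 heat shock and cold-induced genes 8 rose and 1 fell (median 0.47), with the mitochondrial chaperone Hspd1 at 736, 698, 739.8 and 707 CPM at 10-PFOS, against 333, 301, 300.2 and 286 CPM at 0-PFOS (log2 fold change 1.24 ± 0.10, adjusted p = 2.7e-09). The cold-induced RNA-binding genes Rbm3, at 90.1, 109, 102 and 62.1 CPM at 10-PFOS, against 12.4, 37.7, 31.3 and 26.3 CPM at 0-PFOS (log2 fold change 1.75 ± 0.34, adjusted p = 2.0e-04), and Cirbp, at 34.8, 34.8, 35.8 and 22.6 CPM at 10-PFOS, against 8.28, 16.8, 9.16 and 12.1 CPM at 0-PFOS (log2 fold change 1.47 ± 0.31, adjusted p = 4.9e-04), also rose. Of 25 genes of the unfolded protein response of the endoplasmic reticulum 6 fell, a share close to that of all tested genes, and 1 rose (11 fell with library totals, 3 without the libraries that stand apart). Sdf2l1, a cofactor of the chaperone BiP, had 1.0, 2.81, 1.41 and 2.11 CPM at 10-PFOS, against 15.2, 5.13, 5.09 and 5.14 CPM at 0-PFOS (log2 fold change −2.06 ± 0.37, adjusted p = 1.0e-04), with 0-PFOS replicate 1 above the other mice of its group. Of 30 nuclear subunits of oxidative phosphorylation 25 rose and none fell, by a median of 0.43, a count that was 14 with library totals and 15 without the libraries that stand apart. Atp5b, the catalytic subunit of ATP synthase, averaged 1144 ± 47.5 CPM at 10-PFOS and 774 ± 44.2 CPM at 0-PFOS (SD, n = 4 each; log2 fold change 0.56 ± 0.08, adjusted p = 1.1e-05).

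Growth arrest genes rose in part. Of 17 tested p53 targets and growth arrest genes 7 rose and none fell. Cdkn1a, which encodes the cell cycle inhibitor p21, had 16.2, 37.6, 10.3 and 12.4 CPM at 10-PFOS, against 2.11, 1.52, 1.4 and 1.63 CPM at 0-PFOS (log2 fold change 3.52 ± 0.53, adjusted p = 1.2e-05). Gadd45a had 6.85, 5.9, 6.27 and 5.36 CPM at 10-PFOS, against 1.41, 1.42, 0.801 and 1.51 CPM at 0-PFOS (log2 fold change 2.24 ± 0.34, adjusted p = 1.1e-05), and Gadd45b averaged 26.1 ± 6.79 CPM at 10-PFOS and 4.65 ± 3.24 CPM at 0-PFOS (SD, n = 4 each; log2 fold change 2.48 ± 0.37, adjusted p = 1.2e-05). No mice overlapped between groups in these 3 genes of the stress response. Of 21 tested cell cycle genes 7 rose and 2 fell (4 rose without 10-PFOS replicate 4). Cdc20, an activator of anaphase, had 6.48, 2.5, 4.19 and 7.39 CPM at 10-PFOS, against 1.78, 0.371, 1.07 and 1.16 CPM at 0-PFOS (log2 fold change 2.24 ± 0.72, adjusted p = 0.013). Ccnd1, cyclin D1, had 36.7, 19.5, 39.6 and 65.4 CPM at 10-PFOS, against 77.7, 62.4, 61.4 and 96.3 CPM at 0-PFOS (log2 fold change −0.88 ± 0.25, adjusted p = 0.0060), with overlap at 10-PFOS replicate 4. Of 19 genes for iron, zinc and metallothionein 7 rose and 4 fell, and their median changed sign with library totals. Slc39a5, a zinc importer, had 41.6, 33.3, 48 and 50.7 CPM at 10-PFOS, against 2.57, 4.18, 3.04 and 2.65 CPM at 0-PFOS (log2 fold change 3.80 ± 0.32, adjusted p = 4.0e-09). Slc30a10, a manganese exporter, had 6.03, 3.91, 3.97 and 6.09 CPM at 10-PFOS, against 28.6, 25.2, 20.4 and 18.2 CPM at 0-PFOS (log2 fold change −2.21 ± 0.29, adjusted p = 2.0e-06). Tfrc, the transferrin receptor, had 75.7, 54.1, 37 and 9.72 CPM at 10-PFOS, against 7.62, 7.59, 6.04 and 8.79 CPM at 0-PFOS (log2 fold change 2.55 ± 0.46, adjusted p = 8.9e-05), with the mice at 10-PFOS spread widely.

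Immune genes were lower at 10-PFOS in most lists, interferon response genes among them. Promoter stretches of 5 of these genes that fell are shown with the core of the interferon-stimulated response element in capitals (TTTCNNTTTC, on either strand, overlapping matches run together), from RefSeq on the same build and strand as above.
Gbp3 (chr3:142559950-142560043, plus strand): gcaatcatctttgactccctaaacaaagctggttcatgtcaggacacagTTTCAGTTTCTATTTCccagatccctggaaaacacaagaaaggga
Gbp7 (chr3:142530228-142530335, plus strand): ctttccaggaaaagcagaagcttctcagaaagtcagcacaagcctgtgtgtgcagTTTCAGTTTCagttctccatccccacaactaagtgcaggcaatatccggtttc
Ifit1 (chr19:34640749-34640868, plus strand): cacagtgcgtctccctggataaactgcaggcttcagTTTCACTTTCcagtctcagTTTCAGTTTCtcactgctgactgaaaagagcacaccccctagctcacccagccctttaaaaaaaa
Isg15 (chr4:156200820-156200939, minus strand): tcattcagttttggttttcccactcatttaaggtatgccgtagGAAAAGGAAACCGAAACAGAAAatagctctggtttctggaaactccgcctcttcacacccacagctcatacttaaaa
Ifit3 (chr19:34583352-34583471, plus strand): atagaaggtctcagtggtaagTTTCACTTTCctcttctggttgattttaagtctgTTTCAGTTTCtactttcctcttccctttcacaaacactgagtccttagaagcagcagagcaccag
Ifit1, Isg15 and Ifit3 were chosen for this after their values were seen. The core is in the promoter windows of 14 of 21 interferon genes that have one (66.7%) and of 1079 of all 27025 genes (3.99%). Of the 14 with a match 13 fell (median −1.62), and of the 7 without one 5 fell (median −1.19).

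In all, 23 of 26 tested interferon response genes fell and none rose (median −1.50), and their sum was 253 to 481 CPM at 10-PFOS and 731 to 1010 CPM at 0-PFOS. Gbp3, a guanylate-binding GTPase, had 0.849, 0.483, 1.19 and 2.95 CPM at 10-PFOS, against 11.9, 9.05, 9.34 and 8.33 CPM at 0-PFOS (log2 fold change −2.82 ± 0.39, adjusted p = 4.0e-06), and its relative Gbp7 had 3.22, 2.2, 3.6 and 9.89 CPM at 10-PFOS, against 24.5, 17.1, 34.1 and 24.1 CPM at 0-PFOS (log2 fold change −2.40 ± 0.35, adjusted p = 8.8e-06). Replicate 4 was the highest 10-PFOS mouse for both, and without it the log2 fold changes were −3.52 for Gbp3 and −3.05 for Gbp7. Iigp1, an immunity-related GTPase, had 53.1, 65.4, 81.7 and 139.7 CPM at 10-PFOS, against 335, 258, 383 and 264 CPM at 0-PFOS (log2 fold change −1.87 ± 0.23, adjusted p = 7.2e-07). No 10-PFOS mouse overlapped with 0-PFOS in Ifit1, which binds foreign RNA (1.89 ± 1.37 CPM at 10-PFOS and 9.57 ± 3.13 CPM at 0-PFOS, SD, n = 4 each; log2 fold change −2.34 ± 0.50, adjusted p = 5.7e-04). The ubiquitin-like Isg15 averaged 1.02 ± 0.243 CPM at 10-PFOS and 5.06 ± 0.872 CPM at 0-PFOS (SD, n = 4 each; log2 fold change −2.31 ± 0.32, adjusted p = 4.5e-06), and Ifit3, a partner of Ifit1, averaged 4.65 ± 2.48 CPM at 10-PFOS and 17.4 ± 1.99 CPM at 0-PFOS (SD, n = 4 each; log2 fold change −1.90 ± 0.35, adjusted p = 1.3e-04).

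Transcripts of antigen presentation were lower as well. Of 18 genes of MHC class I and the immunoproteasome 17 fell and 1 rose (median −1.0), with sums of 2607 to 3170 CPM at 10-PFOS and 5022 to 5737 CPM at 0-PFOS. H2-K1, a class I heavy chain, had 374, 379, 328 and 374 CPM at 10-PFOS, against 841, 992, 1082 and 955 CPM at 0-PFOS (log2 fold change −1.41 ± 0.14, adjusted p = 3.6e-08). Psmb8, the catalytic subunit that replaces Psmb5 in the immunoproteasome, had 3.92, 5.62, 4.92 and 8.31 CPM at 10-PFOS, against 19.8, 22.3, 30.4 and 19.6 CPM at 0-PFOS (log2 fold change −2.01 ± 0.23, adjusted p = 2.9e-07), the opposite direction to Psmb5. The member that rose was Psme1, a proteasome activator, at 69.3 ± 5.16 CPM at 10-PFOS and 47.4 ± 4.88 CPM at 0-PFOS (SD, n = 4 each; log2 fold change 0.55 ± 0.10, adjusted p = 9.6e-05). Of 8 tested MHC class II genes 6 fell, 1 of them without overlap between the groups (20.9% of all tested genes). Their sum was 83.4 to 177 CPM at 10-PFOS and 151 to 304 CPM at 0-PFOS. The summed Kupffer cell markers, given with the other liver cells, were also lower, and their part in the class II levels was not tested. Ciita, the master regulator of class II, was low, with 0.783, 1.01, 0.387 and 1.14 CPM at 10-PFOS, against 2.92, 2.11, 2.73 and 1.54 CPM at 0-PFOS (log2 fold change −1.48 ± 0.41, adjusted p = 0.0052), and Cd74, the invariant chain, had 49.3, 46.9, 41 and 75.8 CPM at 10-PFOS, against 97, 104, 135 and 70.0 CPM at 0-PFOS (log2 fold change −0.93 ± 0.25, adjusted p = 0.0036), with overlap at 10-PFOS replicate 4.

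Transcripts of proteins that the liver secretes into plasma were lower, and acute phase genes hung on 1 mouse. Of 24 complement components 20 fell and none rose (median −0.90), of 24 coagulation and fibrinolysis factors 19 fell and 2 rose (median −0.63), and of 20 abundant plasma proteins 14 fell and none rose (median −0.59). C9, the pore-forming end of the complement cascade, had 8.62, 11.5, 6.25 and 9.89 CPM at 10-PFOS, against 139, 94.9, 127 and 102 CPM at 0-PFOS (log2 fold change −3.68 ± 0.34, adjusted p = 1.2e-08). Mbl2, a lectin that starts it, had 112, 72.5, 99.1 and 128 CPM at 10-PFOS, against 315, 342, 268 and 302 CPM at 0-PFOS (log2 fold change −1.57 ± 0.16, adjusted p = 7.6e-08), and F11, coagulation factor XI, had 4.87, 11.9, 4.65 and 9.14 CPM at 10-PFOS, against 53.7, 14.7, 35.4 and 23.5 CPM at 0-PFOS (log2 fold change −2.06 ± 0.34, adjusted p = 3.5e-05). Alb, which encodes albumin, had 26965, 19538, 23172 and 32467 CPM at 10-PFOS, against 78957, 59278, 82357 and 86496 CPM at 0-PFOS (log2 fold change −1.59 ± 0.17, adjusted p = 1.3e-07), and Ahsg, fetuin A, had 1666, 1999, 1589.8 and 1591 CPM at 10-PFOS, against 5753, 4764, 4841 and 5234 CPM at 0-PFOS (log2 fold change −1.59 ± 0.16, adjusted p = 6.9e-08). Trf, transferrin, averaged 4654 ± 497 CPM at 10-PFOS and 11550.3 ± 1439 CPM at 0-PFOS (SD, n = 4 each; log2 fold change −1.31 ± 0.12, adjusted p = 1.3e-08), and Ttr, transthyretin, averaged 1594 ± 195 CPM at 10-PFOS and 3374 ± 427 CPM at 0-PFOS (SD, n = 4 each; log2 fold change −1.08 ± 0.13, adjusted p = 8.6e-07). The groups were apart in all of these. C3, the central complement component, was an exception, with 8276, 10904, 8142 and 7032 CPM at 10-PFOS, against 8738, 7397, 7794 and 7749 CPM at 0-PFOS and a difference within the spread of the mice (log2 fold change 0.12 ± 0.12, adjusted p = 0.43).

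Of 23 tested acute phase genes 7 rose and 8 fell, and the counts were 4 and 15 without 10-PFOS replicate 2, 4 and 5 without 0-PFOS replicate 1, and 3 and 13 without both. Saa1, serum amyloid A, had 8.01, 1226, 9.07 and 13.4 CPM at 10-PFOS, against 18.6, 112, 17.4 and 12 CPM at 0-PFOS (log2 fold change 2.97 ± 1.19, adjusted p = 0.043). The rise was that of 10-PFOS replicate 2 alone, since without it the log2 fold change was −1.98 (adjusted p = 0.043). Without 0-PFOS replicate 2, the highest of its group, it was 4.30. Lcn2, lipocalin 2, had 9.18, 203, 10.5 and 6.42 CPM at 10-PFOS, against 6.13, 2.63, 3.98 and 1.86 CPM at 0-PFOS (log2 fold change 3.98 ± 0.81, adjusted p = 3.8e-04), and without 10-PFOS replicate 2 its log2 fold change was 1.26 (adjusted p = 0.016). Il6ra, the receptor chain for interleukin 6, was lower in every 10-PFOS mouse, with 6.79, 14.8, 5.74 and 5.41 CPM at 10-PFOS, against 34.7, 27.2, 28.6 and 31.2 CPM at 0-PFOS (log2 fold change −1.89 ± 0.30, adjusted p = 2.2e-05). Of 22 tested chemokines, cytokines and receptors 12 fell and 1 rose (7 fell without 10-PFOS replicate 3, and 7 without the libraries that stand apart), and the 1 that rose was Ccl9, at 83 ± 18.8 CPM at 10-PFOS and 46.9 ± 5.8 CPM at 0-PFOS (SD, n = 4 each; log2 fold change 0.82 ± 0.16, adjusted p = 2.9e-04).

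Markers of other liver cells moved beside the immune genes. In bulk tissue fewer cells of a type and less RNA per cell cannot be told apart. Of 14 markers of Kupffer cells, the resident macrophages of the liver, 11 fell and none rose (median −0.92), and their sum was 178.5 to 285.7 CPM at 10-PFOS and 406.8 to 594.3 CPM at 0-PFOS. Clec4f, made only by Kupffer cells in the mouse, had 28.4, 35.6, 30.4 and 45.6 CPM at 10-PFOS, against 103, 115, 87.8 and 82.1 CPM at 0-PFOS (log2 fold change −1.47 ± 0.15, adjusted p = 3.4e-08). Folr2 had 2.74, 2.5, 2.64 and 3.91 CPM at 10-PFOS, against 9.23, 12.9, 10.3 and 9.95 CPM at 0-PFOS (log2 fold change −1.84 ± 0.22, adjusted p = 6.4e-07), and Timd4, a receptor on long-lived Kupffer cells, averaged 3.21 ± 1.29 CPM at 10-PFOS and 8.25 ± 1.33 CPM at 0-PFOS (SD, n = 4 each; log2 fold change −1.36 ± 0.28, adjusted p = 4.0e-04). The part of these cells in the lower immune lists was not tested. Of 12 markers of sinusoidal endothelium 7 fell and 1 rose, with sums of 310.0 to 344.5 CPM at 10-PFOS and 403.6 to 467.3 CPM at 0-PFOS. The 1 that rose was Lyve1, the hyaluronan receptor of these cells, with 27.1, 58.6, 35.4 and 21.2 CPM at 10-PFOS, against 6.38, 4.65, 11.5 and 6.87 CPM at 0-PFOS (log2 fold change 2.28 ± 0.37, adjusted p = 2.6e-05), while Clec4g, a lectin of the same cells, averaged 14.8 ± 2.23 CPM at 10-PFOS and 28.6 ± 3.28 CPM at 0-PFOS (SD, n = 4 each; log2 fold change −0.95 ± 0.15, adjusted p = 1.6e-05).

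Of 12 stellate cell and fibroblast markers 5 fell and none rose (8 fell with library totals, 3 without the libraries that stand apart), with sums of 315.7 to 340.6 CPM at 10-PFOS and 366.9 to 482.6 CPM at 0-PFOS. Hgf, hepatocyte growth factor, made by stellate cells, averaged 12.9 ± 1.15 CPM at 10-PFOS and 20.1 ± 3.18 CPM at 0-PFOS (SD, n = 4 each; log2 fold change −0.64 ± 0.17, adjusted p = 0.0036). Erythroid markers, 4 of 5 tested lower, summed to 130.0 to 340.4 CPM at 10-PFOS and 364.9 to 739.1 CPM at 0-PFOS, with the globin gene Hbb-bt at 37, 59.9, 22.4 and 37.9 CPM at 10-PFOS, against 142, 119, 114 and 65.8 CPM at 0-PFOS (log2 fold change −1.49 ± 0.34, adjusted p = 0.0011). Lymphoid and myeloid markers were near the limit of these libraries. The 7 B cell markers summed to 3.69 to 7.85 CPM at 10-PFOS and 7.02 to 19.1 CPM at 0-PFOS, with Ighm, the heavy chain of IgM, lower (2.02 ± 0.461 CPM at 10-PFOS and 6.24 ± 2.06 CPM at 0-PFOS, SD, n = 4 each; log2 fold change −1.62 ± 0.52, adjusted p = 0.014). The 12 T and NK cell markers summed to 2.39 to 4.12 CPM at 10-PFOS and 4.92 to 7.47 CPM at 0-PFOS, and the 8 neutrophil markers to 2.61 to 5.17 CPM at 10-PFOS and 2.91 to 4.75 CPM at 0-PFOS. Of the 8 markers of fat and pancreas 5 were at 0 in all 10-PFOS mice and 7 in all 0-PFOS mice. Of the hepatocyte markers 5 of 10 fell and none rose (3 without 10-PFOS replicate 3 or 4 or without 0-PFOS replicate 2 or 4).

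**Figure D3:**
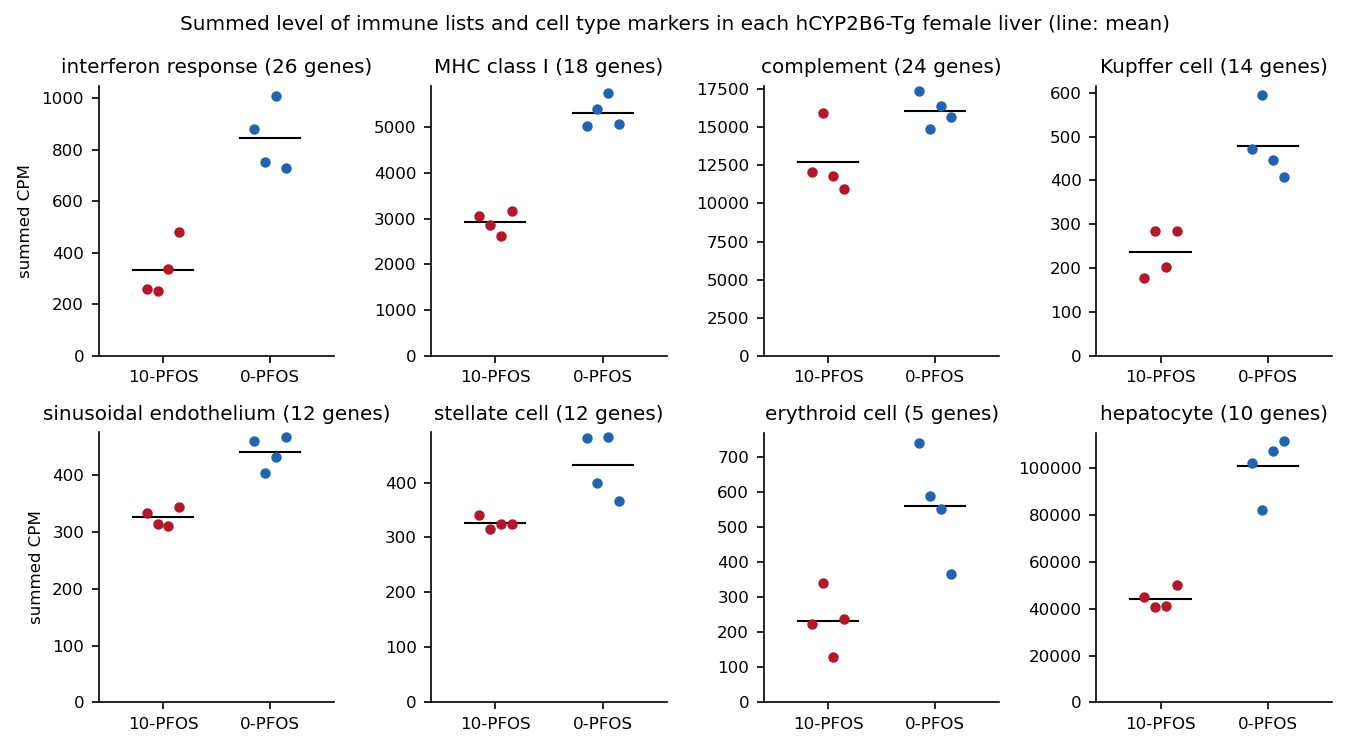
Summed CPM of 8 gene lists (vertical axes, linear from 0, 1 panel per list) in 10-PFOS mice (left in each panel) and 0-PFOS mice (right). Points are mice and lines group means (n = 4). All 4 mice at 10-PFOS lie below all 4 at 0-PFOS for the interferon, MHC class I, Kupffer cell, endothelial, stellate, erythroid and hepatocyte lists (the last mostly through Alb), and the groups overlap for complement.

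At 1 mg/kg/day (1-PFOS, 4 hCYP2B6-Tg females, set against the same 0-PFOS mice) 223 tested genes (1.69%) were higher and 77 (0.584%) lower at an adjusted p under 0.05. Of the 152 genes followed by name 150 passed at 10-PFOS, which follows from the rule that named most of them for passing there. At 1-PFOS 40 of them passed. For 140 the 1-PFOS mean lay between the other means. That share is not given over all tested genes, so it describes these chosen genes only. As the doses share their controls, values are given side by side only. Peroxisomal oxidation had 12 of 26 genes higher at 1-PFOS, the Cyp3a list 8 of 9, the Cyp2c list 7 of 15 and the proteasome 8 of 32, all with none lower. No gene of the interferon, Kupffer, major urinary protein, pericentral, cholesterol or tRNA synthetase lists passed. The interferon list was still lower in sum, at 558 to 640 CPM at 1-PFOS and 731 to 1010 CPM at 0-PFOS (median log2 fold change −0.72). The medians of the other lists ran from −0.29 (Kupffer) to 0.05 (tRNA synthetases). Ehhadh had means of 479.7 CPM at 0-PFOS, 1517 CPM at 1-PFOS and 7485 CPM at 10-PFOS, Cyp2c29 of 1576 CPM at 0-PFOS, 5659.7 CPM at 1-PFOS and 9659 CPM at 10-PFOS, and Cyp4a12a of 2.53 CPM at 0-PFOS, 95.9 CPM at 1-PFOS and 845 CPM at 10-PFOS, each past the threshold at both doses. For Gstm3 the means were 149.5 CPM at 0-PFOS, 418 CPM at 1-PFOS and 5469 CPM at 10-PFOS, and for Abcc4 they were 6.85 CPM at 0-PFOS, 16.1 CPM at 1-PFOS and 266 CPM at 10-PFOS. These genes passed at 1-PFOS too (Gstm3 1.48, adjusted p = 0.0052; Abcc4 1.23, adjusted p = 0.013) but had most of their difference at 10-PFOS. Among the genes that fell, Ahsg (−0.77, adjusted p = 0.0086) passed at 1-PFOS with means of 5148 CPM at 0-PFOS, 3008 CPM at 1-PFOS and 1712 CPM at 10-PFOS, and Alb (−0.35, adjusted p = 0.28) did not, with means of 76772 CPM at 0-PFOS, 60032 CPM at 1-PFOS and 25536 CPM at 10-PFOS.

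**Figure D4:**
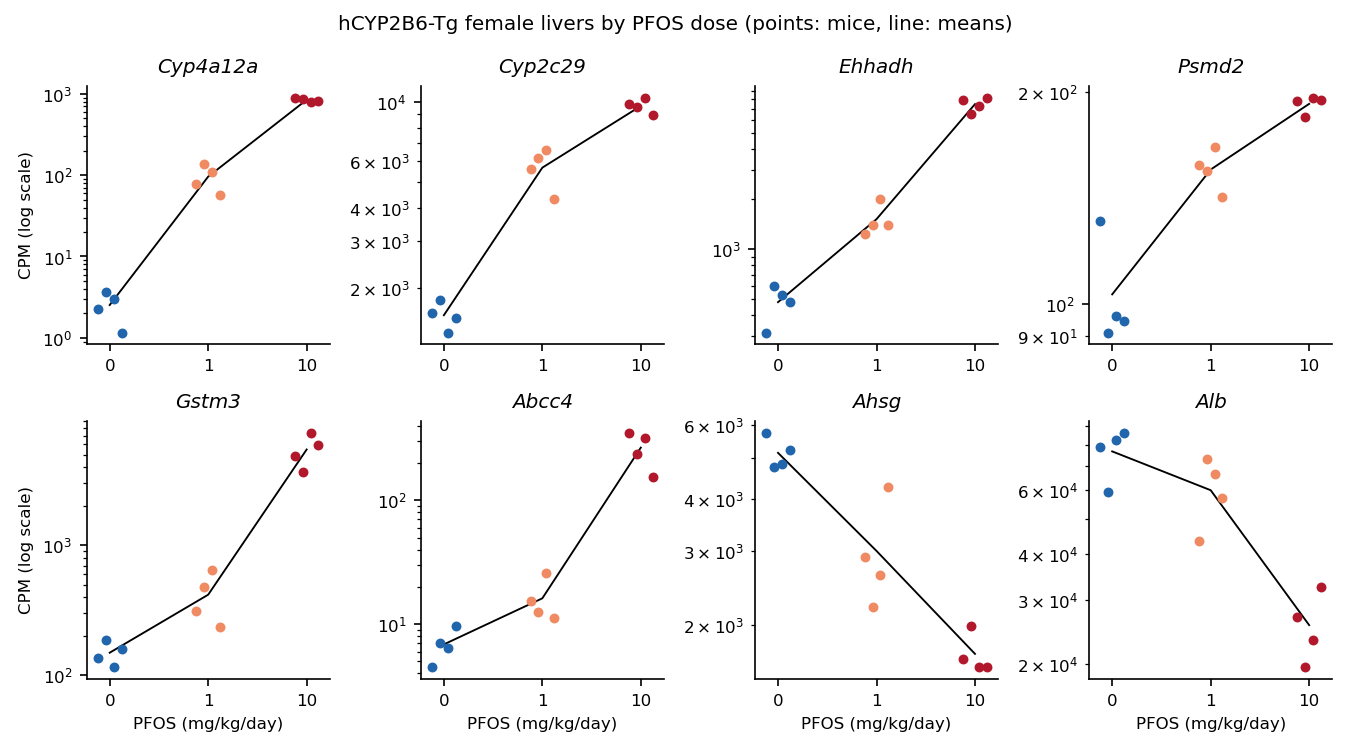
CPM on a log axis at 0-PFOS, 1-PFOS and 10-PFOS for 8 genes in hCYP2B6-Tg females. Points are mice and lines join group means (n = 4). Cyp4a12a, Cyp2c29 and Ehhadh are above 0-PFOS at both doses, Gstm3 and Abcc4 take most of their step at 10-PFOS, Ahsg is below 0-PFOS at both doses, and Alb passed the test at 10-PFOS only.

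The same dose was given to 4 Cyp2b-null females, which carry the deletion without the human transgene, with 4 such mice at 0-PFOS. There 2522 genes (19.1%) were higher and 2345 (17.8%) lower at an adjusted p under 0.05, and 131 of the 152 named genes passed. No gene passed the test of genotype by dose in the quasi-likelihood fit (0 of 13193, with 1357, or 10.3%, at an unadjusted p under 0.05), while 37 passed with the likelihood ratio test of edgeR and 40 with DESeq2. Of 56 lists with at least 5 tested genes 53 had medians of the same sign in both genotypes, whatever their size. The other 3 were fatty acid and triglyceride synthesis (−0.36 in hCYP2B6-Tg females and 0.47 in Cyp2b-null females), the sulfotransferases (0.35 in hCYP2B6-Tg females and −0.52 in Cyp2b-null females) and the iron and zinc list (0.09 in hCYP2B6-Tg females and −0.23 in Cyp2b-null females). The Cyp3a median was 2.64 in hCYP2B6-Tg females and 2.38 in Cyp2b-null females, and that of the major urinary proteins −3.60 in hCYP2B6-Tg females and −4.33 in Cyp2b-null females. Cholesterol synthesis was different in count, with 18 genes lower in hCYP2B6-Tg females and 3 lower in Cyp2b-null females (median −0.05 in Cyp2b-null females). The 18 became 9 without 0-PFOS replicate 1 and 6 without both libraries that stand apart, and the lowest adjusted p of genotype by dose in the list was 0.34. Of 5 clock genes that peak at dawn 1 was lower in hCYP2B6-Tg females (median −0.15) and 3 in Cyp2b-null females (median −1.79). Of 11 clock genes that peak by day 0 were higher in hCYP2B6-Tg females (median 0.02) and 7 in Cyp2b-null females (median 1.57). Their summed levels at 10-PFOS were 318 to 337 CPM in hCYP2B6-Tg females and 208 to 309 CPM in Cyp2b-null females, and at 0-PFOS 251 to 549 CPM in hCYP2B6-Tg females and 139 to 209 CPM in Cyp2b-null females, so that the genotypes already stood apart without PFOS. At an unadjusted p under 0.05 for genotype by dose, 12 of 25 cholesterol genes, 13 of 27 genes of fatty acid and triglyceride synthesis and 4 of 11 daytime clock genes passed, against 10.3% of all tested genes. Such shares were not particular to these lists. Among others, 9 of 20 NRF2 target genes, 5 of 11 Slco and Slc10 carriers, 5 of 12 Slc22 carriers, 9 of 26 peroxisomal genes and 8 of 23 acute phase genes passed. In the interferon and major urinary protein lists 0 passed.

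Among listed genes 5 passed the test of genotype by dose with both the likelihood ratio test and DESeq2, and none in the quasi-likelihood fit (lowest adjusted p = 0.16). Angptl8 had a log2 fold change of −2.77 ± 0.40 in hCYP2B6-Tg females and −0.06 ± 0.37 in Cyp2b-null females, where the levels were 17.5, 10.6, 28.3 and 8.45 CPM at 10-PFOS, against 26.1, 10.9, 9.62 and 21 CPM at 0-PFOS. Cdkn1a had 3.52 ± 0.53 in hCYP2B6-Tg females and 0.53 ± 0.47 in Cyp2b-null females, where the levels were 10.8, 16.8, 13.4 and 13.1 CPM at 10-PFOS, against 4.46, 13.4, 16.4 and 3.34 CPM at 0-PFOS. In Cyp2b-null females the mice of both doses overlapped in these genes, and in hCYP2B6-Tg females they did not. For Lipg the values were −3.03 ± 0.36 in hCYP2B6-Tg females and −1.17 ± 0.33 in Cyp2b-null females. Acox2, a peroxisomal oxidase of bile acid side chains, had 331, 394, 331 and 275 CPM at 10-PFOS, against 121, 117, 116 and 110.2 CPM at 0-PFOS in hCYP2B6-Tg females (1.52 ± 0.11, against 0.81 ± 0.10 in Cyp2b-null females). Cebpg, a partner of ATF4, had 20.3, 21.7, 18.2 and 21.9 CPM at 10-PFOS, against 32.8, 42, 33.1 and 37.9 CPM at 0-PFOS in hCYP2B6-Tg females (−0.83 ± 0.15, against 0.27 ± 0.15 in Cyp2b-null females). Acox2 and Cebpg lie outside the rule for named genes and were chosen after their values were seen.

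**Figure D5:**
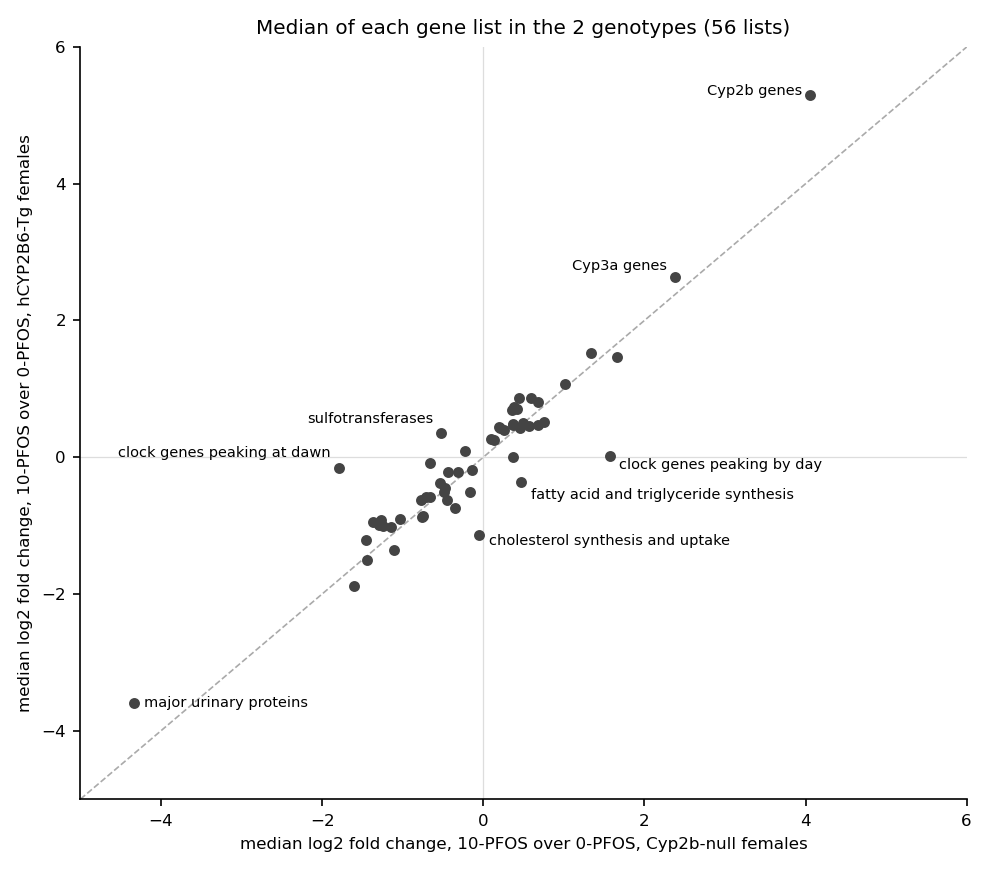
Median log2 fold change of 10-PFOS over 0-PFOS of 56 gene lists in Cyp2b-null females (horizontal axis) and hCYP2B6-Tg females (vertical axis), with the line of equal medians. Most lists lie near the line. The major urinary protein list is lowest and the Cyp2b list highest on both axes, and the cholesterol and daytime clock lists are among those away from the line.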

How the data were processed

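Liver messenger RNA was selected by poly A and sequenced by the authors with 1 library per mouse, so that replicates are separate mice. Gene counts were made by the authors and deposited unnormalised. Their processing notes name FastQC, Trim Galore, RSEM, featureCounts, edgeR and the build GRCm39, and for versions and counting options, not given in the sources used here, nothing was assumed. In the 8 libraries 90.5 to 91.1% of the counts above 0 were even, so counts are not read as molecules. Of the rows, 25 were broken across lines and were left out (0.04 to 0.06% of counts), and 40847 genes remained. The 64 columns of values per sample in comparison tables, the 24 count columns of males and the authors' fold changes and p-values were not used. No label gives a batch.

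Groups came from the labels. A gene was tested with more than 1 CPM in at least 3 of 4 mice of a group (13193 genes). Counts of 24 female libraries in 6 groups were fitted in R 4.3.3 with edgeR 4.0.16 (TMM, quasi-likelihood F test, Benjamini-Hochberg adjustment over all tested genes), as this lets the groups share 1 estimate of spread. The 62 lists (1106 entries, 1018 tested) were written from general knowledge of the pathways. The members and lists were chosen with earlier results of these data known. Named genes are the 20 largest rises and falls of at least 10 CPM without overlap, the 10 largest gains and losses in CPM, up to 3 leading members of each list at 1 CPM or more with its most expressed member and, where members moved both ways, the largest of each direction, and the 3 deleted genes. Of the 248 genes this takes, 143 have values in the text, as mainly near copies (Mup, Cyp3a, Cyp2c, Serpina1) and further members of lists were left out, and some are not reported here. Alternatives were other scalings (RLE, upper quartile, library totals), other filters, the likelihood ratio test, DESeq2 1.42.0, a fit of the 8 libraries, a replicate block and leaving out each mouse. Leaving out both libraries that stand apart, and the 2 other tests of genotype by dose, were added after the data were seen. Python 3.11.15 with pandas 2.3.3, numpy 2.4.6 and matplotlib 3.10.9 was used for lists and figures.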

Additional observations from a re-analysis of the deposited data

Results flagged for a closer look

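In the 4 mice of each group the gap between the highest or lowest mouse and its nearest neighbour was divided by the range of the group. For the 152 named genes this ratio passed Dixon's critical value for 4 samples in 22 of 304 groups (7.24%), where chance gives about 1 in 20. Of these mice 7 were 10-PFOS replicate 2 and 7 were 0-PFOS replicate 1. In 10-PFOS mice replicate 2 was highest for Saa1 (ratio 0.996), Lcn2 (0.979), Sult3a1 (0.898), Il6ra (0.854) and Slc13a3 (0.836) and lowest for Vldlr (0.870) and Psmd2 (0.835). Replicate 4 was highest for Pmvk (0.966), Acot1 (0.879) and Folr2 (0.831) and lowest for Cirbp (0.923), and replicate 3 was lowest for H2-K1 (0.889). In 0-PFOS mice replicate 1 was highest for Sdf2l1 (0.995), A1bg (0.956), Pmvk (0.938), Cyp2c69 (0.917), Apof (0.902), Trf (0.886) and Psmd2 (0.876). Replicate 3 was highest for Cyp2c55 (0.891) and lowest for Gadd45a (0.857), and replicate 2 was highest for Saa1 (0.934).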

How the results depend on the processing

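Against 744 genes higher and 1053 lower beyond 1 log2, the counts were 787 and 1002 with RLE scaling, 638 and 1213 with upper quartile scaling, 572 and 1362 with library totals, 757 and 1071 with the likelihood ratio test, 794 and 1012 with DESeq2, 758 and 968 with only the 8 libraries, 865 and 1267 with no filter, and 375 and 527 above 10 CPM, where fewer genes were tested. Leaving out each mouse gave 693 to 815 higher and 947 to 1230 lower, and leaving out both libraries that stand apart 667 and 982. Same-numbered mice did not deviate together (correlations 0.06, 0.17, 0.006 and −0.04), and a fit with a replicate block gave 750 and 1060. Genotype by dose had 37 genes with the likelihood ratio test and 40 with DESeq2, against 0. Of 2718 values of named genes under the alternatives 2705 kept their direction and side of the threshold. The 4 that changed direction were C3 with library totals (−0.00686) and without 10-PFOS replicate 2 (−0.0175), and Saa1 without that mouse (−1.98) and without the libraries that stand apart (−2.21, adjusted p = 0.034). Without single mice C3 ran from −0.0175 to 0.20 and Saa1 from −1.98 to 4.30. Saa1 also failed the test in 6 other settings, the replicate block among them (2.08, adjusted p = 0.16), Nsdhl without the libraries that stand apart (−0.86) and Nr1i2 in 2. The causes were not tested. Of 2196 list counts 2064 stayed within 1.5 times.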

Other observations

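Some genes with large differences belong to none of the pathways above. Ly6d, a small surface protein best known from lymphocytes and squamous epithelium, had 31.7, 50.1, 27.2 and 35.1 CPM at 10-PFOS, against 0.952, 1.25, 0.863 and 0.730 CPM at 0-PFOS (log2 fold change 5.24 ± 0.40, adjusted p = 7.8e-10), and Themis, a signalling gene of T cell development, had 10.7, 11.9, 10.4 and 12.1 CPM at 10-PFOS, against 0.414, 0.0337, 0.780 and 0.597 CPM at 0-PFOS (log2 fold change 4.64 ± 0.53, adjusted p = 2.5e-07). The 12 T and NK cell markers were lower in sum in the same livers, at 2.39 to 4.12 CPM at 10-PFOS and 4.92 to 7.47 CPM at 0-PFOS. Avpr1a, the vasopressin receptor of hepatocytes, had 2.31, 2.72, 2.46 and 2.81 CPM at 10-PFOS, against 53, 33.6, 25.7 and 21.6 CPM at 0-PFOS (log2 fold change −3.70 ± 0.30, adjusted p = 2.1e-09). Treh, which splits trehalose, had 10.4, 11.1, 10.3 and 8.79 CPM at 10-PFOS, against 0.331, 0.0674, 0 and 0.0663 CPM at 0-PFOS (log2 fold change 6.47 ± 0.68, adjusted p = 7.2e-08), and without 0-PFOS replicate 1 its log2 fold change was 7.68. Egr1, an immediate early transcription factor, had 1.39, 0.922, 2.83 and 5.58 CPM at 10-PFOS, against 89.3, 30.1, 15.3 and 22.2 CPM at 0-PFOS (log2 fold change −3.87 ± 0.81, adjusted p = 4.7e-04), and without single mice its log2 fold change ran from −4.52 to −3.08. Enho, which encodes the secreted peptide adropin, had 1.17, 2.39, 1.78 and 0.703 CPM at 10-PFOS, against 36.2, 18.8, 17.9 and 12.1 CPM at 0-PFOS (log2 fold change −3.81 ± 0.40, adjusted p = 8.2e-08). Lack of overlap between the groups was a condition for naming these 6 genes, so it is not a result about them. In Cyp2b-null females the log2 fold changes were 5.17 ± 0.40 for Ly6d, 3.90 ± 0.51 for Themis, −3.40 ± 0.29 for Avpr1a, 5.60 ± 0.61 for Treh, −3.42 ± 0.78 for Egr1 and −4.54 ± 0.41 for Enho.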
